A study of Mus musculus with 8 samples.

Results

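The genes described here encode the proteasome and its regulators, and were chosen as every gene whose symbol starts with Psma to Psmg followed by a digit, which selects 50 of the 31053 mouse genes in the count tables. They comprise 7 alpha and 7 beta subunits of the constitutive core, the 3 immunoproteasome subunits Psmb8, Psmb9 and Psmb10, the 2 tissue-specific core subunits Psma8 and Psmb11, 9 subunits of the regulatory base, 8 of the regulatory lid, 6 activators and inhibitors, 7 assembly factors, and Psmc3ip. Psmc3ip encodes a meiotic recombination cofactor named for its binding to the base ATPase Psmc3, so it met the rule without being a proteasome gene. The rule also left out proteasome genes with other symbols, such as the chaperone Pomp and the lid subunit Sem1, whose values are given with the pathway genes.

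The 26S proteasome degrades proteins that carry ubiquitin chains. Its barrel-shaped core holds the cutting sites on inner beta subunits, outer alpha subunits gate the entry, and a regulatory particle of lid and base binds, deubiquitinates and unfolds the substrate. In immune cells and after interferon, Psmb9, Psmb10 and Psmb8 take the places of Psmb6, Psmb7 and Psmb5 and yield more peptides suited to MHC class I molecules, while the transcription factor Nfe2l1 raises the constitutive subunits together when proteasome activity drops.

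Single-cell RNA-seq (Chromium 3′ V3) was performed on SN4741, a clonal mouse line labelled as neural precursor cells of genotype WT, with 4 libraries per temperature. The line was derived from embryonic substantia nigra of mice with the temperature-sensitive T antigen SV40Tag-tsA58 under a tyrosine hydroxylase promoter, so all 8 libraries carry this oncogene, and the study's karyotyping found the line polyploid and unstable. The 37C group was grown at 37 °C with 10% serum, and the 39C group was kept for 48 h at 39 °C with 0.5% serum to induce differentiation, so temperature, serum and time cannot be told apart. The labels do not say whether replicates were separate cultures, so the p-values measure only the spread between these libraries.

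After filtering, 18351 of 19125 cells remained, with 985 to 3494 cells and 17166686 to 29633818 UMIs per library. Cells assigned to G1 made up 21.05% to 28.55% at 37C and 83% to 85.38% at 39C, and the comparisons of members were therefore also made in G1 cells alone. The proliferation markers Mki67 and Top2a still differed there, with a summed level of 59.15 to 69.71 CPM at 37C and 23.18 to 25.04 CPM at 39C (683.2 to 747.1 and 71.77 to 85.41 CPM in all cells), and their part in the values in G1 cells was not tested. The precursor markers Nes and Sox2 were present in every library, with means at 37C and 39C of 467.2 and 108.4 CPM for Nes and 55.4 and 76.5 CPM for Sox2, whereas Sox1, Pax6, Prom1 and Fabp7 had at most 6 UMIs each over all libraries, and the dopaminergic markers Th, Slc6a3, Pitx3 and Ddc at most 7, with Slc18a2 at 119. Any pair of libraries had at most 5 cell barcodes in common.

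RefSeq promoter sequences (GRCm38.p6, 250 bases before to 50 after the start) were found for 42 of the 50 genes. The windows of 70 bases that follow, read 5′ to 3′ on the gene's strand, are shown because Psmb5 and Psmb6 are constitutive subunits with an antioxidant response element, the letters bound by Nfe2l1 and Nfe2l2, and because Psma1 is an alpha subunit with a CCAAT box. Capitals mark the motif on the gene's own strand.
Psmb5, chr14:54618003-54618072, minus strand: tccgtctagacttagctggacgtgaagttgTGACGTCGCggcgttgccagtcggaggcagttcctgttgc
Psmb6, chr11:70525287-70525356, plus strand: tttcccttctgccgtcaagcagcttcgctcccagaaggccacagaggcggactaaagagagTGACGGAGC
Psma1, chr7:114276177-114276246, minus strand: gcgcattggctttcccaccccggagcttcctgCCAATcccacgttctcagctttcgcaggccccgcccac

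The windows just before the RefSeq starts of the 3 immunoproteasome genes are shown because Psmb8 and Psmb10 were called lower and Psmb9 was not. Capitals in Psmb9 mark a CCAAT box on the opposite strand, and the windows of Psmb8 and Psmb10 held none of the motifs searched. The RefSeq starts lie 474 bases (Psmb8), 434 bases (Psmb9) and 52 bases (Psmb10) downstream of the outermost GENCODE vM21 starts, so the Psmb8 and Psmb9 windows lie inside the GENCODE genes.
Psmb9, chr17:34187331-34187400, minus strand: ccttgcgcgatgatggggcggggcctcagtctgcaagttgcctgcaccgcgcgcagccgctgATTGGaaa
Psmb10, chr8:105938393-105938462, minus strand: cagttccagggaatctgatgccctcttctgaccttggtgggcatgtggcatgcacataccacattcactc
Psmb8, chr17:34198125-34198194, plus strand: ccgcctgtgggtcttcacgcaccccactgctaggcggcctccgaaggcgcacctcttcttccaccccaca

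Motifs were searched on both strands of the whole promoter entries. The antioxidant response element TGACNNNGC occurred in 6 of the 42 promoters (Psmb5, Psmb6, Psmc6, Psmd12, Psmd9 and Psme4) and in 12.4% of all 32851 promoters. CCAAT occurred in 15 of the 42 promoters, a share close to the 37.4% of all promoters. By class, it was in 5 of 7 alpha, 1 of 4 beta, 3 of 8 base and 1 of 6 lid promoters. The interferon regulatory factor letters (GAAA, any 2 bases, GAAA) were found in 5 members (Psmb3, Psmd4, Psmd9, Psme1 and Psmg4) and in 3.44% of all promoters, and in none of the 3 immunoproteasome genes. No member held the heat shock element (GAA, any 2 bases, TTC, any 2 bases, GAA), present in 0.603% of all promoters, or the NF-kB letters (GGG, any 2 bases, TTTCC), present in 1.63%. The RefSeq starts used lie 58777 bases (Psmd9) and 3877 bases (Psmb11) downstream of the outermost GENCODE starts, so these promoter entries also lie inside the GENCODE genes. All matches describe the letters of the promoter entries only.

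The subunits of the 26S proteasome were lower at 39C as a body. Summed over the 31 core, base and lid subunits, the level in CPM (UMI counts scaled to a common library size, here by each library's own total) was 6985, 7549, 7486 and 7715 in the 37C libraries and 5540, 5588, 5679 and 5411 in the 39C libraries. Every 39C library lay below every 37C library, with means of 7434 ± 314 (SD, n = 4) and 5555 ± 112 (SD, n = 4). These values are shares of each library's UMIs, and the sums do not tell fewer cells that transcribe these genes from less RNA per cell. Counts in single cells were not compared.

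All 31 subunits passed the test in the lower direction (edgeR quasi-likelihood test with Benjamini-Hochberg adjustment, adjusted p under 0.05), with a median log2 fold change of -0.48 and a range from -0.75 to -0.11. The groups did not overlap for 30 of the 31, Psmc1 being the exception. In the 17 other settings tried in all cells, 28 subunits were called lower each time, while the call was lost for Psmd11 in 10, for Psmc1 in 7 and for Psmb1 in 2 (adjusted p = 0.0506 to 0.137). Of the 15810 genes tested, 30.5% were called lower and 31.5% higher (62% in all), and the groups did not overlap for 56.7% in either direction. Among the 3322 genes with a mean of at least 50 CPM (here, and for single members unless said otherwise, after TMM scaling), a range that holds all 31 subunits, 47.6% were called lower and 33.4% higher, 77.3% had groups that did not overlap, and the median log2 fold change was -0.09. The subunits' folds ran from 0.594 to 0.929, 24 of them between 0.6 and 0.8, so none reached the stricter rule of an adjusted p under 0.01 with a log2 fold change over 1.5 in size, which 5.83% of all genes met. The 37C replicate 1 library was the lowest of its group for 24 of the 31 subunits, and the median without it was -0.53.

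The alpha subunits, which form the outer gated rings, had a median log2 fold change of -0.58. Psma1, whose promoter is shown above, fell most among the 31 subunits, with 105.0, 120.2, 124.0 and 127.5 CPM at 37C and 70.64, 69.42, 70.76 and 72.13 CPM at 39C. The 39C libraries were almost level with each other and lay below all 37C libraries, a log2 fold change of -0.75 ± 0.05 (SE, adjusted p = 4.83e-10). Psma7 fell by 0.69 and Psma2 by 0.60 on the log2 scale, and Psma4 changed least of the alpha subunits, with a log2 fold change of -0.35 ± 0.05.

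The beta subunits had a median of -0.51. The 3 that cut peptide bonds fell to similar extents, with log2 fold changes of -0.60 ± 0.06 for Psmb5 (chymotrypsin-like site), -0.50 ± 0.06 for Psmb6 (caspase-like site) and -0.41 ± 0.05 for Psmb7 (trypsin-like site). Psmb5 was measured at 354.6, 387.0, 367.9 and 409.8 CPM at 37C and at 228.3, 263.9, 258.8 and 247.7 CPM at 39C, with no overlap. Psmb1, a structural beta subunit, stood apart from the rest of its ring, with 417.5 ± 17.3 CPM at 37C against 380.3 ± 13.5 CPM at 39C (SD, n = 4) and a log2 fold change of -0.13 ± 0.05 (adjusted p = 0.0247).

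In the regulatory base, which holds the ATPase ring that unfolds substrates, the median was -0.43. The ATPase Psmc5 fell most, with 163.4 ± 10.6 CPM at 37C, 107.0 ± 2.99 CPM at 39C (SD, n = 4) and -0.61 ± 0.05 on the log2 scale, and its fellow ATPase Psmc1 fell least, at -0.13 ± 0.05 (adjusted p = 0.0335). The ubiquitin receptor Psmd4 was also near the small end, at -0.14 ± 0.05. In the lid the median was -0.47. Psmd12, a scaffold subunit, fell most, with 190.6 ± 6.03 CPM at 37C, 123.8 ± 8.48 CPM at 39C (SD, n = 4) and -0.62 on the log2 scale. The deubiquitinase Psmd14 fell by 0.61, while Psmd11 differed least, at -0.11 ± 0.04 (adjusted p = 0.0409).

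In G1 cells the same subunits were also lower. Of the 31, 30 were called lower, with a median log2 fold change of -0.40, where 22.3% of the 14720 genes tested in G1 cells were called lower and 24.9% higher (47.2% in all). Of the 3297 genes with at least 50 CPM in G1 cells, 38.3% were called lower and 31.8% higher, and the groups did not overlap for 66.1%. Psmc1 was the subunit not called, at -0.04 ± 0.05 (adjusted p = 0.605). The size of the log2 fold change was smaller in G1 cells than in all cells for 27 of the 31. Over all members, 44 of the 49 tested were called lower in all cells and 2 higher, and 40 lower and 0 higher in G1 cells. For the higher direction in G1 cells DESeq2 also called 0, and 1 member had an unadjusted p under 0.05.

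**Figure D1:**
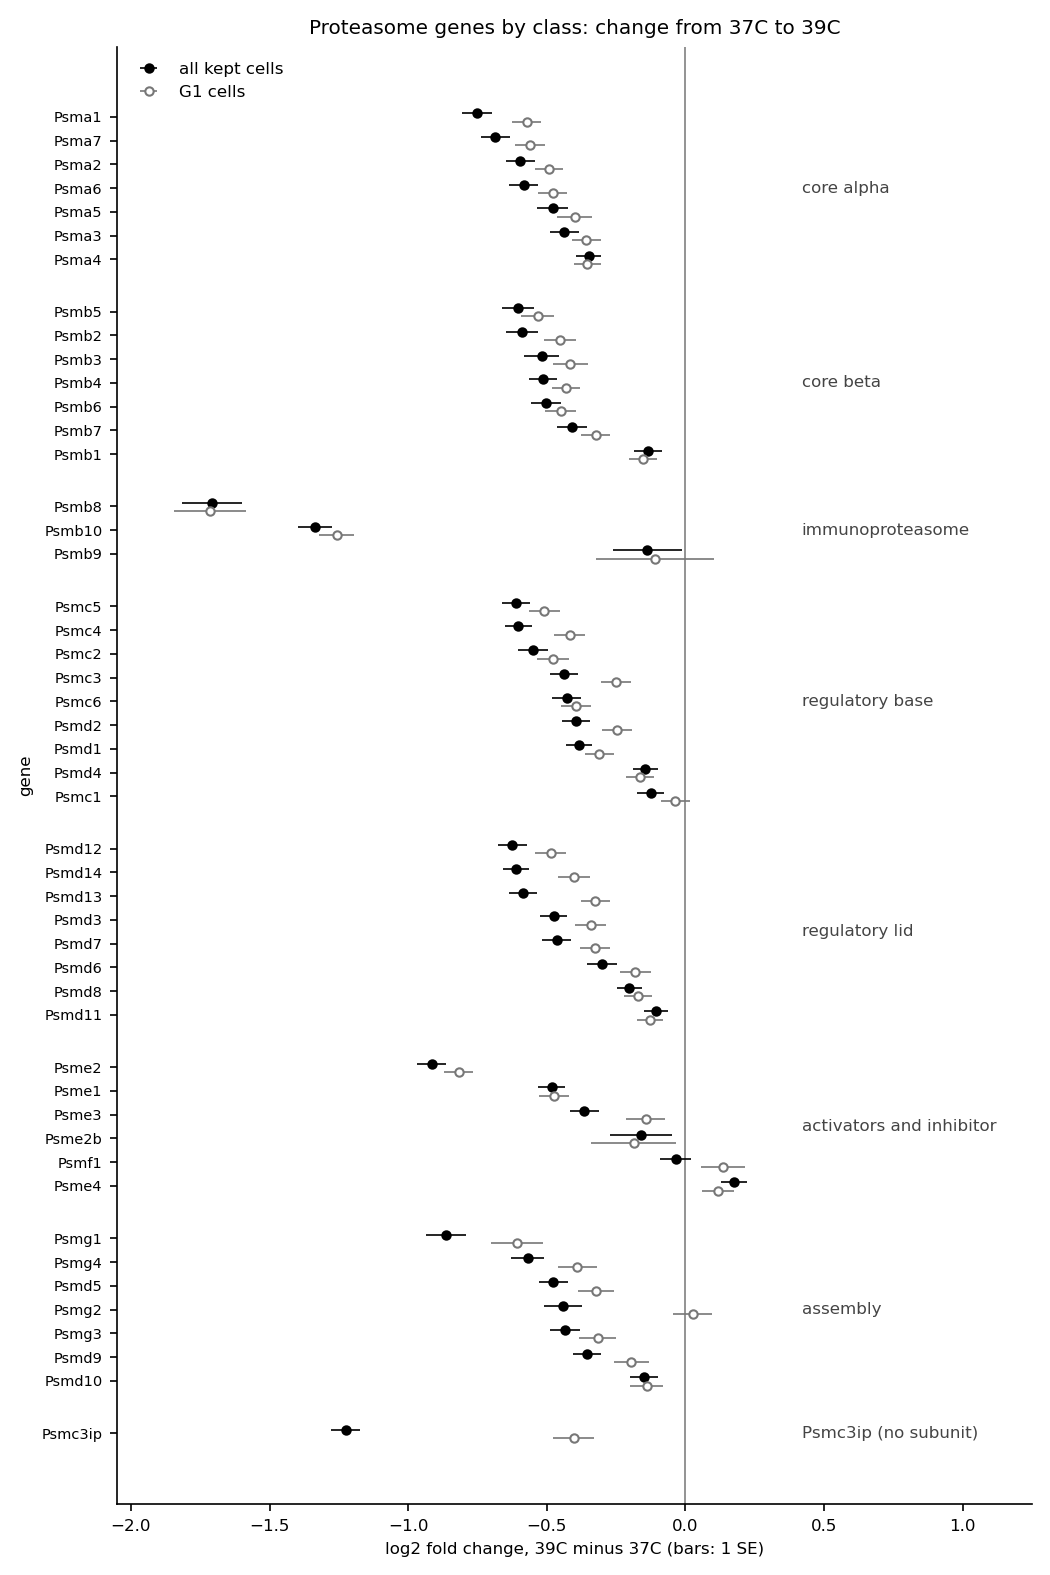
Log2 fold change from 37C to 39C (horizontal axis) of 48 members grouped by class, in all kept cells (filled) and in G1 cells (open), with bars of 1 SE from 4 libraries per temperature; Psma8 and Psmb11, at 0 and 16 UMIs, are left out. The core, base and lid subunits lie between -0.75 and -0.11 in all cells, Psmb8 and Psmb10 lie below -1.3, and Psmc3ip moves from -1.23 in all cells to -0.40 in G1 cells.

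The same step was present within each phase. At 37C the summed 26S subunits stood at 7204 CPM in G1, 7786 in S and 7163 in G2M cells, and at 39C at 5521, 5805 and 5578. The 37C libraries of each phase lay above all 39C libraries of that phase, and the means of the 3 phases at 1 temperature lay closer together than the means of the temperatures. In S cells alone 43 of 48 tested members were called lower, against 23.5% of all genes, and 1 (Psme2b, 0.50, adjusted p = 0.0417) higher, against 20.1%. In G2M cells 37 of 48 were called lower, against 16%, and 0 higher, against 12.7%. The 39C libraries held only 28, 103, 114 and 165 G2M cells, against 547 to 946 in the 37C libraries, which limits the G2M values. The same 34 members were called lower in all cells, G1, S and G2M cells alike, as were 11.9% of the 13325 genes tested in all 4 sets and 29.7% of those with at least 50 CPM. Phases are assigned by score, and 13.1% of the kept cells lay within 0.05 of a cut between phases.

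**Figure D2:**
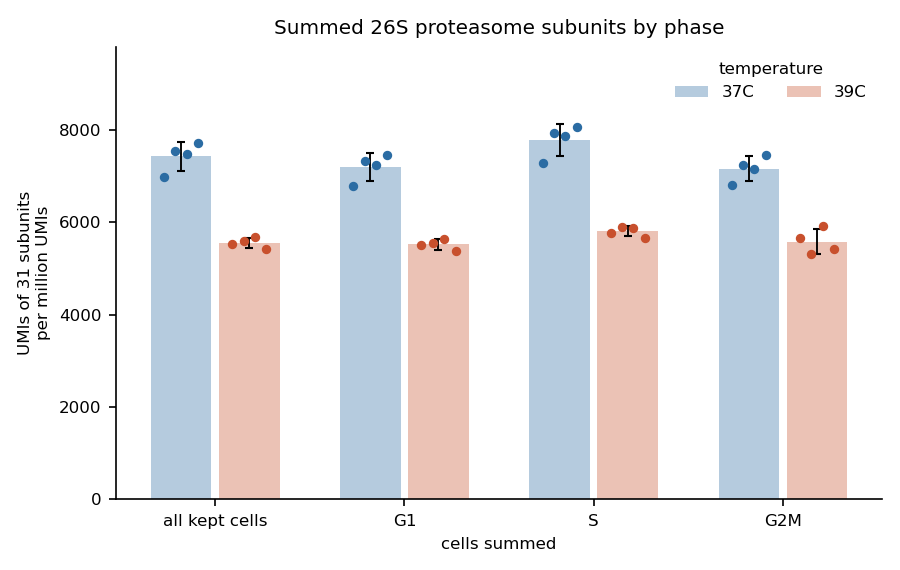
Summed CPM, by library total, of the 31 core, base and lid subunits (vertical axis, from 0) in all kept cells and in cells assigned to G1, S or G2M. Points are libraries, bars are means and error bars 1 SD (n = 4). The 37C points lie above all 39C points in every phase, with means of 7163 to 7786 at 37C and 5521 to 5805 at 39C.

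The immunoproteasome subunits split. Psmb8 and Psmb10 fell further than any constitutive subunit, and Psmb9 was not called. Psmb8 was measured at 10.63, 12.21, 11.18 and 13.45 CPM at 37C and at 4.369, 4.013, 3.398 and 2.93 CPM at 39C. The groups were well apart, with a log2 fold change of -1.71 ± 0.11 (SE, adjusted p = 5.91e-11), and Psmb8 was the only member past the stricter rule. Psmb10 was measured at 49.5, 59.76, 57.45 and 59.29 CPM at 37C and at 21.11, 22.94, 23.4 and 21.74 CPM at 39C. These groups did not overlap either, and its log2 fold change was -1.34 ± 0.06 (adjusted p = 5.41e-13). Psmb9 was measured at 2.982, 2.829, 2.769 and 2.949 CPM at 37C and at 3.064, 2.612, 2.761 and 2.159 CPM at 39C. Its groups overlapped, and its log2 fold change was -0.14 ± 0.12 (adjusted p = 0.355), from 54 to 87 UMIs per library.

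In G1 cells the split remained. The log2 fold changes there were -1.72 ± 0.13 for Psmb8 and -1.26 ± 0.06 for Psmb10, both called, with Psmb8 again past the stricter rule that 2.48% of all genes met in G1 cells, and -0.11 ± 0.21 for Psmb9 (adjusted p = 0.704). In S cells they were -1.53, -1.16 and 0.41, and in G2M cells -1.81, -1.04 and 0.41, with Psmb9 called in neither. The sum of the 3 immunoproteasome subunits was 70.5 ± 5.66 CPM at 37C and 28.9 ± 1.22 at 39C (SD, n = 4), most of it Psmb10.

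Each immunoproteasome subunit replaces 1 constitutive subunit, so its UMIs were expressed as a share of the pair. The 3′ tags give 1 count per captured transcript whatever its length, but capture may differ between genes, so a share is to be compared between temperatures and not read as a stoichiometry. Psmb10 made up 22.38%, 24.74%, 22.8% and 22.87% of the Psmb7 and Psmb10 UMIs at 37C and 12.72%, 14.46%, 13.67% and 13.86% at 39C. All 39C shares were lower, a difference of -9.52 percentage points (exact permutation test, two-sided, p = 0.0286, which is the smallest of its 70 assignments, and 0.0429 adjusted over the 3 pairs). The Psmb8 share of the Psmb5 pair was 3.02% ± 0.12 at 37C and 1.46% ± 0.31 at 39C (SD, n = 4), lower in 4 of 4 libraries (exact permutation p = 0.0286, adjusted 0.0429). The Psmb9 share of the Psmb6 pair was 0.757%, 0.676%, 0.665% and 0.657% at 37C and 1.13%, 0.851%, 0.888% and 0.727% at 39C. It differed by 0.21 percentage points upwards and did not pass (exact permutation p = 0.0571, adjusted 0.0571), since the lowest 39C library overlapped the highest 37C library.

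**Figure D3:**
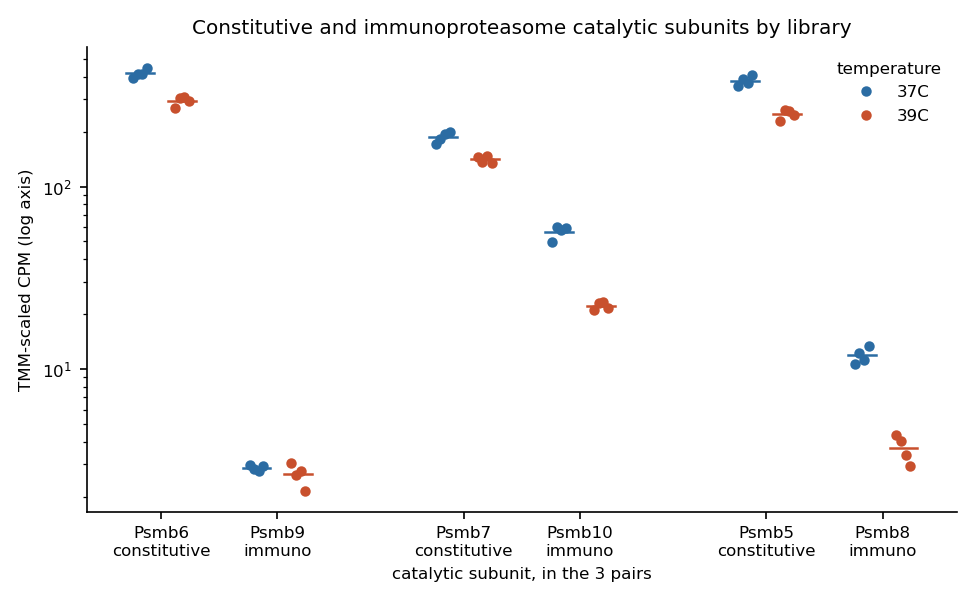
TMM-scaled CPM (log axis) of the 3 constitutive catalytic subunits and of the immunoproteasome subunit that replaces each; points are libraries and lines are means (n = 4 per temperature). Psmb8 and Psmb10 drop from 11.9 to 3.68 and from 56.5 to 22.3 CPM, and the Psmb9 points at 39C lie among those at 37C.

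Psmb9 lies head to head with Tap1, a subunit of the peptide transporter that feeds MHC class I, with outermost starts 211 bases apart on chromosome 17 in the GENCODE vM21 annotation, and Psmb8 lies between Tap1 and Tap2. These neighbours did not move alike. Tap1 was measured at 27.39, 27.87, 27.27 and 28.47 CPM at 37C and at 58.55, 53.11, 51.12 and 52.39 CPM at 39C. All 39C libraries were higher, a log2 fold change of 0.95 ± 0.05 (adjusted p = 4.15e-12), beside -0.14 for Psmb9, -1.71 for Psmb8 and -0.31 ± 0.10 for Tap2 (adjusted p = 0.0128). Annotated genes on the opposite strand overlap Psmb8 by 2139 bases (Gm20496, 0 UMIs) and Psmb10 by 2710 bases (Gm16156, 1 UMI at 37C and 4 at 39C). Psmb9 overlaps Tap1 by 212 bases. Whether the counting used strand is not stated in the sources used here.

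Immune cells carry immunoproteasome subunits, so their markers are given beside these values. Of the 8 immune markers, 1 was called higher (Cd68), 2 lower (Lyz2 and Cd74) and 3 were not called, and 2 were too low to test. Their summed level was 20.87 to 24.19 CPM at 37C and 28.44 to 37.63 at 39C, most of it Cd68, a lysosomal protein (means of 17.1 and 29.0 CPM). Ptprc, which marks all blood cells, had 8 UMIs over all libraries, Aif1 29, Csf1r 21 and Cd3e 0. Lyz2, the lysozyme of myeloid cells, had 541 UMIs at 37C and 182 at 39C, a log2 fold change of -1.38 ± 0.18 in all cells (adjusted p = 2.10e-06) and of -0.13 ± 0.26 in G1 cells (adjusted p = 0.708). Cd74, the MHC class II invariant chain, had 45 UMIs at 37C and 5 at 39C. In all cells Lyz2 and Cd74 fell in the direction of Psmb8 and Psmb10, whereas Cd68 and the summed level of the markers rose. In G1 cells, where Lyz2 was not called, Psmb8 and Psmb10 were at -1.72 and -1.26. Any part of immune cells in these values was not tested.

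Among the activators that can cap the core in place of the regulatory particle, the members did not move as a group. Psme1 and Psme2 encode the subunits that form the PA28 alpha and beta ring that works with the immunoproteasome, and both fell. Psme2 was measured at 214.7, 234.6, 235.5 and 242.0 CPM at 37C and at 117.2, 124.1, 130.0 and 119.7 CPM at 39C. The groups lay far apart, with a log2 fold change of -0.92 ± 0.05 (adjusted p = 8.52e-12), and -0.82 ± 0.05 in G1 cells. Psme1 was measured at 188.4, 209.3, 194.8 and 197.5 CPM at 37C and at 145.7, 146.1, 140.7 and 133.0 CPM at 39C. These groups did not overlap either, and the log2 fold change of -0.48 ± 0.05 (adjusted p = 5.08e-08) was at the median of the 26S subunits. The transcript of Psme2b, a copy of Psme2, was 99.4% identical to it over 794 aligned bases, and Gm12185 covers Psme2b on the same strand. Reads may not be assigned to these genes with certainty, so the values of Psme2 and Psme2b are uncertain. Psme2b was at 5.90 ± 0.73 CPM at 37C and 5.26 ± 0.72 at 39C (SD, n = 4) and was not called (adjusted p = 0.223).

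Psme3, the nuclear PA28 gamma activator, was lower in all cells, at -0.37 ± 0.05, and was not called in G1 cells, at -0.14 ± 0.07 (adjusted p = 0.104). Psmf1, the PI31 inhibitor of the core, was at 25.66 ± 1.85 CPM at 37C and 24.98 ± 0.46 at 39C (SD, n = 4) and was not called (adjusted p = 0.602), whereas in G2M cells it was called lower, at -0.48 (adjusted p = 0.0281).

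Psme4 encodes PA200, a monomeric nuclear activator. It was measured at 54.67, 53.13, 51.0 and 56.91 CPM at 37C and at 58.38, 62.12, 60.18 and 62.6 CPM at 39C. Every 39C library was higher, a log2 fold change of 0.17 ± 0.05 (adjusted p = 0.00315), so that Psme4 was the only abundant member called higher. Within phases this direction was kept, without a call, in G1 cells and turned in S and G2M cells. In G1 cells the log2 fold change was 0.12 ± 0.06 and was not called (adjusted p = 0.0917), and in S and G2M cells Psme4 was called lower, at -0.24 ± 0.09 (adjusted p = 0.0342) and -0.44 ± 0.12 (adjusted p = 0.00339). At 37C its level was higher in G1 cells (60.3 CPM by library total) than in S cells (47.7). Most cells of the 39C libraries were assigned to G1, and any part of phase in the all-cell rise was not tested.

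All 7 assembly factors were called lower in all cells, with a median log2 fold change of -0.44, where 30.5% of all genes were called lower. In G1 cells 5 of 7 were called lower, with a median of -0.32, against 22.3% of all genes. Psmg1, which pairs with Psmg2 as the chaperone of the alpha ring, was measured at 27.87, 32.55, 34.91 and 32.37 CPM at 37C and at 18.04, 15.82, 19.72 and 16.58 CPM at 39C. These groups did not overlap, with a log2 fold change of -0.86 ± 0.07 (adjusted p = 4.51e-09), and it stayed lower in G1 cells, at -0.61 ± 0.09. Its partner Psmg2 was at -0.44 ± 0.07 in all cells (adjusted p = 1.28e-05) and at 0.03 ± 0.07 in G1 cells (adjusted p = 0.792). In the 37C libraries Psmg2 stood at 36.2 CPM by library total in G1 and 55.35 in S cells.

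The second chaperone pair, Psmg3 and Psmg4, had log2 fold changes of -0.43 ± 0.05 and -0.57 ± 0.06 in all cells and of -0.32 and -0.39 in G1 cells, called in both. The base chaperones Psmd5, Psmd9 and Psmd10 were at -0.48, -0.35 and -0.15 in all cells. Psmd10, also known as gankyrin, was not called in G1 cells (-0.14 ± 0.06, adjusted p = 0.0633).

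Psmc3ip, the recombination cofactor, had a larger change than any 26S subunit in all cells but not in G1 cells. It was measured at 49.64, 55.69, 54.79 and 53.92 CPM at 37C and at 23.83, 21.65, 23.51 and 22.63 CPM at 39C. The groups lay far apart, with a log2 fold change of -1.23 ± 0.05 (adjusted p = 1.72e-13). In G1 cells it was -0.40 ± 0.07 (adjusted p = 7.60e-05), in S cells -0.69 ± 0.08, and in G2M cells -0.19 ± 0.12 without a call (adjusted p = 0.26). At 37C its level in S cells was 2.73 times that in G1 cells, whereas the ratios of the 26S subunits ranged from 0.939 to 1.3. No member detected in G1 cells at 37C had a larger ratio. Psmc3ip overlaps Mlx on the opposite strand by 385 bases.

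**Figure D4:**
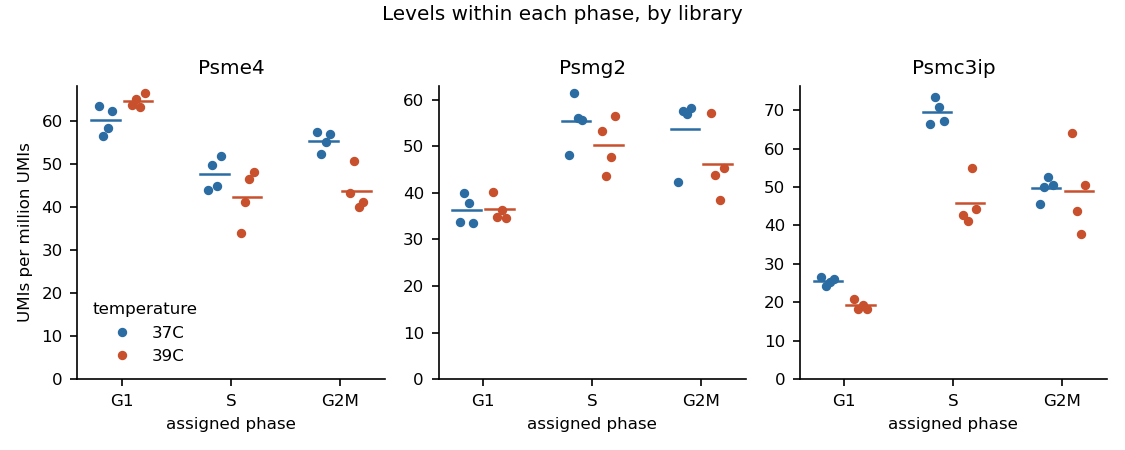
CPM by library total (vertical axes, from 0) of Psme4, Psmg2 and Psmc3ip in cells assigned to G1, S and G2M; points are libraries and lines are means (n = 4 per temperature). Psme4 at 39C lies below 37C in G2M (43.9 against 55.5) but not in G1, Psmg2 is level in G1 (36.2 and 36.4), and Psmc3ip at 37C rises from 25.5 in G1 to 69.5 in S.

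The tissue-specific core subunits were at the limit of detection. Psma8, the testis alpha subunit, had 0 UMIs in all 8 libraries, which allows up to 0.0265 CPM at 37C and 0.0308 at 39C by a limit of 3 counts over each group. Psmb11, the thymus beta subunit whose gene lies 3410 bases from Psmb5 on chromosome 14, had 0, 2, 0 and 1 UMIs at 37C and 1, 2, 6 and 4 at 39C. The groups overlapped, and the ratio of 13 to 3 UMIs, scaled to the library totals, was 5.04 with a 95% exact binomial interval of 1.39 to 27.6 that covers counting error only. Psmb11 was the second member called higher (adjusted p = 0.0301), and the call was lost without either of the 37C replicates 1 and 3 or the 39C replicates 3 and 4 (adjusted p = 0.0651 to 0.122), and also under the replicate block (0.0593), DESeq2 (0.0868) and thinning (0.089).

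Genes outside the symbol rule that act on the proteasome were read from lists of 44 tested genes. Of these, 12 were called higher and 19 lower in all cells, and 12 higher and 14 lower in G1 cells (all genes tested: 31.5% higher and 30.5% lower in all cells, 24.9% and 22.3% in G1 cells). The core chaperone Pomp was measured at 304.8, 318.3, 328.9 and 342.7 CPM at 37C and at 211.0, 234.8, 232.3 and 230.8 CPM at 39C. It fell without overlap, at -0.51 ± 0.05 (adjusted p = 5.29e-08). The proteasome-bound deubiquitinases Uchl5 and Usp14 fell, with log2 fold changes of -0.77 and -0.72, as did the scaffold Ecpas (listed as AI314180), at -0.33, and the shuttle receptor Rad23b, at -0.27. The lid subunit Sem1 and the ubiquitin receptor Adrm1 were not called, at -0.16 ± 0.07 (adjusted p = 0.0591) and -0.10 ± 0.06 (adjusted p = 0.142).

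Zfand5 and Zfand2a, zinc-finger proteins that bind the proteasome, were the 2 of the 18 genes in their list that were called higher. Zfand2a, which is induced by proteotoxic stress, was measured at 12.1, 13.76, 14.69 and 12.57 CPM at 37C and at 39.38, 31.42, 31.19 and 33.0 CPM at 39C. All 39C libraries were higher, with a log2 fold change of 1.34 ± 0.08 (adjusted p = 1.21e-11) and 1.249 ± 0.10 in G1 cells. Zfand5 was at 0.50 ± 0.04 in all cells.

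Of the 10 genes that control proteasome transcription, 6 were called higher and 2 lower in all cells (all genes: 31.5% and 30.5%), and 5 higher and 1 lower in G1 cells (24.9% and 22.3%). Nfe2l1 itself was measured at 83.43, 91.97, 79.05 and 75.9 CPM at 37C and at 100.5, 87.9, 86.16 and 83.42 CPM at 39C. Its groups overlapped, and it was not called in all cells (0.11 ± 0.06, adjusted p = 0.127) or in G1 cells (-0.07 ± 0.06, adjusted p = 0.37). It was called higher with a mitochondrial limit of 10% (0.15, adjusted p = 0.0399) or without the 37C replicate 2 (0.17, adjusted p = 0.0256), and lower in S cells (-0.20, adjusted p = 0.0371), so no direction is given for it. Ddi2, the protease that cleaves and activates the Nfe2l1 protein, was higher, at 0.71 ± 0.05, as was the related factor Nfe2l2, at 0.56 ± 0.05. The small Maf partners of these factors were higher as well, with log2 fold changes of 1.49 for Maff, 0.96 for Mafk and 0.68 for Mafg. Vcp, the ATPase that extracts ubiquitinated proteins and helps to process Nfe2l1, was measured at 444.6, 465.1, 438.2 and 474.3 CPM at 37C and at 282.6, 304.3, 284.7 and 286.5 CPM at 39C. It was lower in every library, at -0.65 ± 0.05 (adjusted p = 6.96e-10).

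Of the 10 partners on the interferon side, 2 were called higher, Tap1 and the MHC class I transactivator Nlrc5, and 6 lower (all genes: 31.5% and 30.5%). Nlrc5 was at a low level, 0.604 ± 0.208 CPM at 37C and 2.99 ± 0.377 at 39C (SD, n = 4), with a log2 fold change of 2.30 ± 0.20. The peptide-loading factor Tapbp fell by 1.00 on the log2 scale, the class I heavy chains H2-K1 and H2-D1 by 0.54 each, and the transcription factor Irf1 by 0.21. In G1 cells Irf1 was not called, at -0.13 ± 0.07 (adjusted p = 0.14). B2m, the class I light chain, was not called in all cells (0.00 ± 0.05, adjusted p = 0.975) and was lower in G1 cells, at -0.15 ± 0.05 (adjusted p = 0.0282). Among the genes of ubiquitin supply, the activating enzyme Uba6 was called higher, at 0.34, and the main activating enzyme Uba1 lower, at -0.26.

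**Figure D5:**
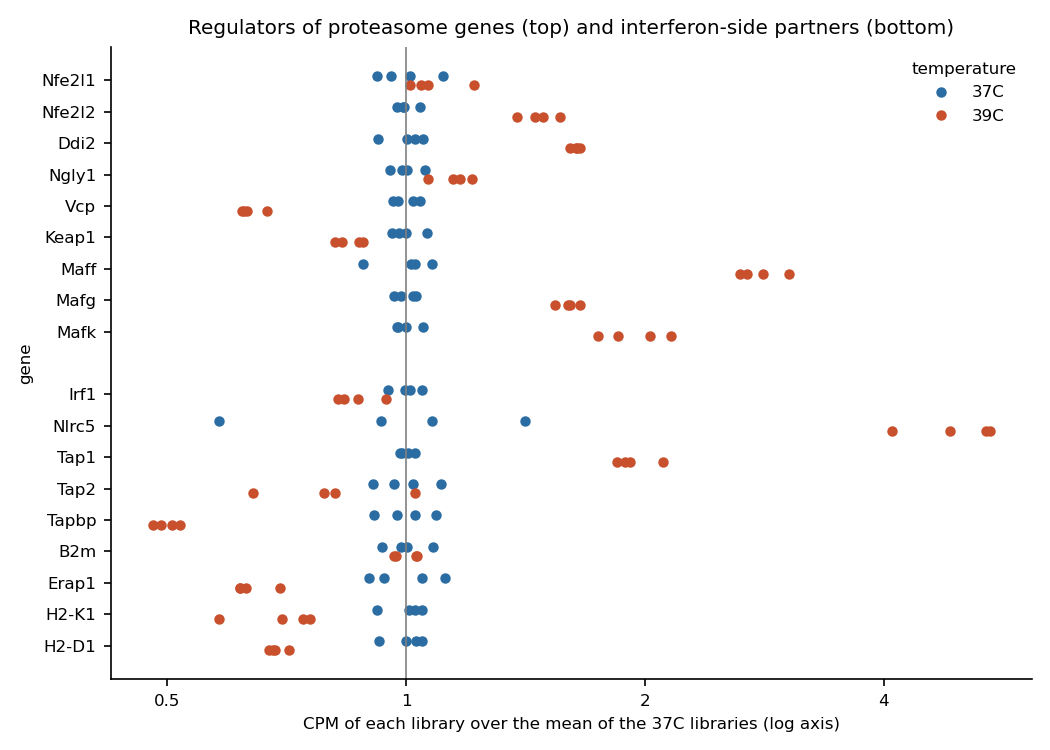
CPM of each library divided by the mean of the 37C libraries (log axis) for 9 regulators of proteasome genes and 9 interferon-side partners; Nfe2l3, with at most 5 UMIs per library, is left out. Maff, Mafk, Ddi2, Nlrc5 and Tap1 at 39C lie to the right of all 37C points, Vcp and Tapbp lie to the left, and Nfe2l1 and B2m overlap.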

How the data were processed

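The authors aligned 10x Chromium 3′ V3 reads to mm10 and counted them with Cell Ranger 3.0.1, and deposited 1 table of UMI counts by gene and cell per library. Whether strand was used is not given in the sources used here. Following the study's limits, cells with at most 15% mitochondrial UMIs and 200 to 6000 genes were kept. The upper limit on genes was the study's treatment of doublets, and no doublet caller was run. Phases were assigned with Seurat 5.3.0 from S and G2M gene lists that hold 0 of the members. Replicate libraries differed beyond sampling noise in every pair, so each counted as 1 sample.

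Counts were summed per library over all kept cells, or over those of 1 phase. Genes averaging 1 or more counts per library were tested in edgeR 4.0.16 (TMM scaling, quasi-likelihood test on temperature, Benjamini-Hochberg adjustment over all genes tested, R 4.3.3), and SE is the fold change over the root of F. Per-library CPM are TMM-scaled, whereas summed levels and levels by phase are CPM of the library's own total. The 49 tested members are the 50 without Psma8. On simulated counts, 200 of 200 changed genes with a log2 size of 1 were recovered in all cells with 9 false calls among 15810 genes. In G1 cells 199 of 200 were recovered, with 4 false calls among 14720. Every core, base and lid subunit changed by less than this size, with log2 fold changes from -0.75 to -0.11 in all cells. Recovery of such smaller changes was not tested. The changed genes were drawn only from genes with higher counts, and all genes were simulated with the same dispersion. Recovery in members with few counts, such as Psmb9 and Psmb11, was therefore not tested either. With 200 genes changed, against 9803 called in all cells of the data, the false calls give no rate for these results. Shares of catalytic pairs were compared by exact permutation (scipy 1.17.1).

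The members and gene lists were chosen with earlier results of these data known. Members were named by role, and by the largest rise and fall of each class among called members. The members that changed least in a class, and pathway genes other than Pomp and Nfe2l1, were named after their values were seen, and the added size limit of 0.3 (log2) and the S and G2M values of single members were also chosen then. Alternatives were other cell filters, scalings and count filters, DESeq2 1.42.0, a replicate block, thinning and leaving out each library. Sequences came from RefSeq, and gene positions from GENCODE vM21.

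Replicate numbers were checked for pairing: deviations of same-numbered libraries correlated at -0.16, -0.12, -0.21 and 0.44, so the numbers were not treated as pairs. Some genes of the lists are counted but not reported here by name.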

Additional observations from a re-analysis of the deposited data

Results flagged for a closer look

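Among the 98 groups of 4 libraries tested, 2 held a library that stood apart from the other libraries of its group by Dixon's criterion at the 95% level, where about 4.9 would arise at a rate of 1 in 20. Both were the 39C replicate 1 library. Psme3, the PA28 gamma activator, was at 27.69 CPM there and at 30.28 to 30.76 CPM in the other 39C libraries, a gap of 0.844 of the range. Psmf1, the PI31 inhibitor, was at 24.28 CPM there and at 25.17 to 25.28 CPM in the others, a gap of 0.89 of the range.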

How the results depend on the processing

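The count of members called lower in all cells ranged from 37 (G2M cells) to 44 and in G1 cells from 32 (with a log2 size over 0.3) to 41. The count called higher in all cells, 2, became 1 under filterByExpr, DESeq2, the replicate block, thinning, S cells alone or a log2 size over 0.3, and 0 in G2M cells, and it ranged from 1 to 2 with single libraries left out. In G1 cells it ranged from 0 to 1, the 1 being Psme4 without the 37C replicate 1 (0.15, adjusted p = 0.041). Of the pathway genes, 31 were called in all cells and 20 in G2M cells.

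Direction turned in S and G2M cells for Psmb9 (0.41 in both), Psme4 (-0.24 and -0.44) and Nfe2l1 (-0.20 and -0.15), for Psmf1 without the 37C replicate 2 (-0.08856 to 0.01249 over single libraries left out), and for Psmg2 in G1 cells, which lay at 0, with a mitochondrial limit of 10% (-7.803e-06) and without the 37C replicates 1 or 4 or the 39C replicate 1 (-0.01218 to 0.07537 over single libraries left out). The cause was not tested.

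With permutation within replicate numbers (replicate block) the share differences were again -9.52 for Psmb10 and -1.56 for Psmb8, but p cannot fall below 0.125. With 1 library left out they ranged from -9.79 to -9.002 and from -1.70 to -1.47, where p cannot fall below 0.0571. The Psmb9 share passed without the cell filter (0.217 percentage points, exact permutation, adjusted p = 0.0286). In the edgeR fit the replicate block left 43 members lower and 1 higher in all cells and 39 lower in G1 cells, and only replicate 4 correlated best with its own number. Depth limits Psmb11, Psma8, Nfe2l3 and, within phases, Psmb9. It also limits Psmb8 in G2M cells, where the 39C libraries ran from 1.018 to 9.135 CPM by library total.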
